A study of Mus musculus with 3 samples.

Results

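A set of 10 endothelial genes was followed across the 3 cell preparations of this series: Stab1, Stab2, Lyve1, Clec4g, Pecam1, Kdr, Flt1, Flt4, Tek and Fcgr2b. They were chosen by name, as the probes whose transcript accession maps to these symbols, which gave 11 probes for 10 of 20655 named genes. Kdr has 2 probes and the other 9 genes have 1 each. iHep are hepatocyte-like cells made from spleen fibroblasts, PH are freshly isolated mouse primary hepatocytes used as a positive control, and MF are primary mouse fibroblasts of SiO2-remodelled spleen, which the design text takes as the control. The treatment label names the vectors LV-NC and LV-3TF, without naming the factors or spelling out which cells got which vector, and MF and iHep were collected after 14 days of culture following transduction. iHep and MF therefore share their origin in SiO2-remodelled spleen and their time in culture, while PH are labelled as fresh; all samples are labelled female, and no strain or age is given in the labels. RNA of 5 samples was pooled in each group and hybridised to 1 one-colour array. Nothing here could therefore be tested against a spread between samples, and "higher" and "lower" describe these 3 arrays alone.

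Liver sinusoids are lined by a fenestrated endothelium without a continuous basement membrane, which clears waste from the blood. Its cells take up hyaluronan, collagen fragments, modified lipoproteins and immune complexes through scavenger receptors, C-type lectins and an inhibitory Fc receptor. The tyrosine kinase receptors for VEGF and for angiopoietins, in contrast, are shared by blood vessels of many organs. Stab1, Lyve1 and Fcgr2b are also made by some macrophages, Fcgr2b by B lymphocytes, and Pecam1 by platelets and leukocytes.

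All 10 genes were highest in PH, the array on which 42.1% of 18200 genes were highest. Relative to MF, all 10 were at least 2-fold higher in PH, where 31.4% of the 17405 genes compared were that much higher and 25.8% lower. iHep lay at least 2-fold below PH for all 10, against 36.1% lower and 23.4% higher among 17802 genes. Between iHep and MF the genes split: 7 of 10 were at least 2-fold lower in iHep, 1 was higher and 2 were within 2-fold, against 24.7% lower and 21.1% higher among 16259 genes. At 4-fold, 4 of the 10 were lower and 0 higher in iHep than MF, against 12.1% and 7.43% of genes; 8 were higher and 0 lower in PH than MF, against 18.8% and 11.4%; and 10 were lower and 0 higher in iHep than PH, against 21.4% and 10.1%. At 1.5-fold, 7 were lower and 2 higher in iHep than MF, against 33.3% and 31.6%. All 10 were higher in PH than MF at that threshold, against 38.8% higher and 35.2% lower, and all 10 lower in iHep than PH, against 44.6% lower and 31.4% higher. The 3 comparisons share their arrays and are not independent of each other. The 2-fold shares of all genes also stand as the background for the list counts below, several of which lie near them.

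The 250 bases upstream of the annotated start are shown for 4 of the 8 genes with a sequence in the RefSeq promoter table (build GRCm38.p6). They stood furthest below PH in iHep when bounds are taken as values and Kdr by the probe used; by its 10-spot probe Kdr, at -10.68, would be among them, and Flt4 as read, at -8.67, would precede Flt1 at -8.38. Capitals mark matches on either strand to GATA-type letters, which are NGATAN with A or T as the first letter and A or G as the last, or to ETS-type letters. The ETS-type letters searched were AGGAAG or the same with C as the first letter. Proteins of both families are transcription factors of endothelial cells, among other cells. The sequences run 5′ to 3′ along the gene.
Fcgr2b, chr1:170976072-170976321, minus strand: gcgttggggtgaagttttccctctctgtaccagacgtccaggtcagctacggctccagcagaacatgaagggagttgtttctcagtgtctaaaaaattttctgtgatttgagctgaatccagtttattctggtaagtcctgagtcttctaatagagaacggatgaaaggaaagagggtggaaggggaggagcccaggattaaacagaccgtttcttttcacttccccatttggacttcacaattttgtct
Stab2, chr10:87007943-87008192, minus strand: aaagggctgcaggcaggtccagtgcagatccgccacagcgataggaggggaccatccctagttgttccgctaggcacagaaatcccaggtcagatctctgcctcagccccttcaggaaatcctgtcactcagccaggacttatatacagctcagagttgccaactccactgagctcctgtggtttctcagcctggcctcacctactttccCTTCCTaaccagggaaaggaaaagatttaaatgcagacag
Clec4g, chr8:3720652-3720901, minus strand: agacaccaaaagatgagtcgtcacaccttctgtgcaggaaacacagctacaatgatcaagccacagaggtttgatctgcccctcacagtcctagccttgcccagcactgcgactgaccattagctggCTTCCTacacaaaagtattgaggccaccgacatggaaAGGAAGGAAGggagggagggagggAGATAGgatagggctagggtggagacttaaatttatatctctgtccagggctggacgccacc
Flt1, chr5:147726012-147726261, minus strand: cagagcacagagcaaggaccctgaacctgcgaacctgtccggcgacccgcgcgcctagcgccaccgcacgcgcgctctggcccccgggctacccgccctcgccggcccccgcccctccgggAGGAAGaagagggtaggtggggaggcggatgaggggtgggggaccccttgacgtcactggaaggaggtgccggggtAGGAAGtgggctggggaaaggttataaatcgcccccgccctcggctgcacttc
In Clec4g 2 of the 3 ETS-type matches overlap. Of the 8 upstream windows, 4 held an ETS-type match and 1 a GATA-type match, while these were present in 39.2% and 26.5% of the 32851 windows in the table. The windows of Fcgr2b, Kdr, Flt4 and Tek held neither. Lyve1 and Pecam1 are named only.

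Each level given here is the log2 of a signal over the 75th percentile of its array, so that 0 is that percentile; levels of different probes are not comparable. The percentile was an intensity of 3752 on the iHep array, 2081 on PH and 544.3 on MF, and the MF array was the dimmest. iHep and PH were read in 1 scan and MF in another, so that scan and group cannot be told apart wherever MF is compared. From probes printed 10 times and above background, the spot SD of a difference was 0.14 in log2 units for iHep against MF. It was 0.15 for either comparison with PH. This SD comes from spots within each array and holds no spread of labelling, hybridisation or scan between arrays. Where a gene had several probes, their differences spread more widely, with SDs of 0.85 (iHep against MF), 1.11 (PH against MF) and 1.09 (iHep against PH). Lists of 12 genes each were used to check the labels. Hepatocyte genes summed to 3.02 times the 75th-percentile signal in iHep, 705.2 in PH and 0.366 in MF, and fibroblast genes to 79.3 in iHep, 98.1 in PH and 710.4 in MF. In iHep all 12 fibroblast genes lay below MF by 2-fold or more, and 10 of 12 were lower and 2 higher in PH than MF. iHep thus stood far below PH for the hepatocyte list, whose 12 genes were each at least 2-fold lower in iHep, while 3 of 11 compared exceeded MF by 2-fold or more (for example Hnf4a, a nuclear receptor of hepatocytes, and Cyp3a11, a drug-metabolising enzyme). The other 8 compared were within 2-fold of MF, among them Alb at 1.37-fold higher. The hepatocyte sum in iHep rests largely on Hnf4a, whose level of 1.04 was the greatest of that list there. Whether a vector added to the Hnf4a signal in iHep was not tested, as the labels do not name the factors.

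**Figure D1:**
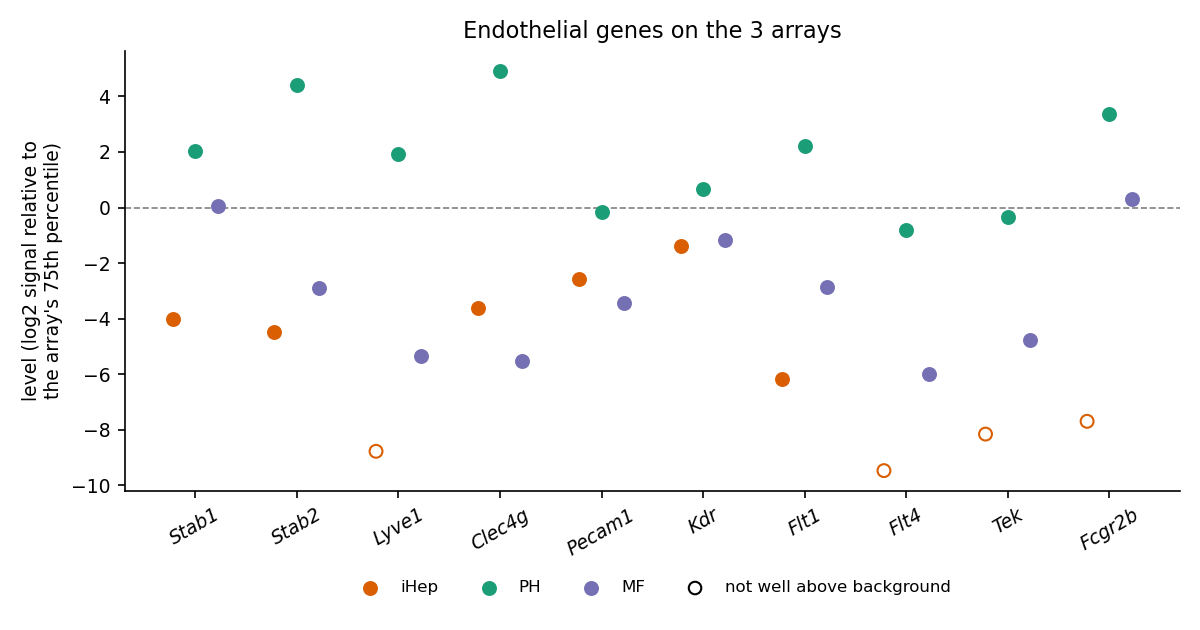
Level of each gene (log2 signal relative to the array's 75th percentile) on the iHep, PH and MF arrays, 1 point per array for the probe used; open points were not well above background. PH points lie above both others for all 10 genes, and the 4 open points are all iHep (Lyve1, Flt4, Tek and Fcgr2b).

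The scavenger receptors were abundant in PH and low in iHep. Stab2, the main clearance receptor for hyaluronan, had a level of -4.47 in iHep, 4.42 in PH and -2.88 in MF. PH alone was above the 75th percentile. Its signal was thus 474-fold lower in iHep than PH and 157-fold higher in PH than MF, while iHep lay 3.02-fold below MF. Stab1, a related receptor of sinusoidal endothelium and of macrophages, had a level of -4.01 in iHep, 2.05 in PH and 0.05 in MF. Here PH was 3.99-fold higher than MF, and iHep stood apart at 16.7-fold below MF and 66.6-fold below PH. Lyve1, a hyaluronan receptor of lymphatic and sinusoidal endothelium, read -8.77 in iHep, 1.94 in PH and -5.33 in MF. In iHep its spot was not well above background, with an intensity of 8.58 against 13.5 in MF, so iHep was at least 3.98-fold below MF and at least 617-fold below PH. PH was 155-fold above MF. Under an alternative, normexp background correction, that log2 difference was 4.99, against 7.28 as reported. With 1 background floor common to all arrays, the bound for Lyve1 in iHep over MF was a log2 value of -0.97, within 2-fold, against -1.99 as reported.

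Among other scavenger receptors, iHep exceeded MF at least 2-fold for 3 of 10 genes compared and lay below it for 5, against 21.1% and 24.7% of all genes. Scarf1, a receptor first described on endothelial cells, was 4.50-fold higher, and Scarb1, the HDL receptor, 3.47-fold higher, whereas Mrc1, the mannose receptor, was 74.7-fold lower and Scarf2 78.0-fold lower. Relative to MF, PH had 5 of 12 higher and 3 lower, against 31.4% and 25.8% of all genes, with Scarf1 23.7-fold higher and Scarf2 30.3-fold lower. Cd36, a fatty acid and lipoprotein receptor, was at 1.88 in iHep, 0.86 in PH and 0.49 in MF, and was 2.03-fold higher in iHep than PH. It was the only gene of that list at least 2-fold higher in iHep than PH, where 6 of 12 were lower.

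Clec4g, the sinusoidal lectin LSECtin, showed the greatest difference of the 10 between PH and MF. Its level was -3.60 in iHep, 4.92 in PH and -5.52 in MF, and its intensities were 309.3 in iHep, 63102 in PH and 11.9 in MF. PH stood 1389-fold above MF, and iHep 368-fold below PH. Under normexp the PH over MF log2 difference was 7.96, against 10.44 as reported. iHep was 3.78-fold above MF, and no other of the 10 genes passed 2-fold upward there, but the MF spot was dim, and under normexp background correction the log2 difference was -0.26, against 1.92 as reported. Fcgr2b, the inhibitory IgG receptor through which sinusoidal endothelium takes up immune complexes, was printed 10 times on each array. Its level was -7.69 ± 0.39 in iHep (SD of 10 spots), 3.37 ± 0.04 in PH (9 spots) and 0.31 ± 0.02 in MF (9 spots). In iHep 2 of 10 spots were well above background, and the gene was treated as not above it. iHep was at least 199-fold below MF and at least 1659-fold below PH, while PH was 8.33-fold above MF. The spread between spots covers the printing and reading of 1 array, not the cells.

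The other Fc receptors and their partners were low in iHep too: 6 of 8 compared were at least 2-fold lower than in MF and none higher, and 8 of 9 were at least 2-fold lower than in PH. Fcgr3, an activating IgG receptor of myeloid cells, was 203-fold lower in iHep than MF and Fcer1g, the signalling chain of several Fc receptors, 29.4-fold lower. Relative to MF, PH had 5 of 9 higher and none lower. Fcrla was at least 39.0-fold higher, Fcer2a, the low-affinity IgE receptor, 5.73-fold, Fcrl1 4.65-fold and Fcgrt, the neonatal Fc receptor, 2.60-fold. Fcgr1, Fcgr3 and Fcer1g were within 2-fold in PH over MF, at 1.05-fold, 1.94-fold and 1.18-fold higher.

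Most macrophage markers, like Stab1, Lyve1 and Fcgr2b, were lower in iHep than MF. So were all 12 fibroblast genes. Of 17 measured macrophage genes, 13 of 15 compared were at least 2-fold lower in iHep than MF and 0 were higher, with a median log2 difference of -5.60, against 0.03 over all genes compared. The list summed to 3.07 times the 75th-percentile signal in iHep, 110.9 in PH and 107.1 in MF, with 13, 17 and 15 of its genes above background on iHep, PH and MF. C1qc, a complement chain of macrophages, was at least 4503-fold lower in iHep than MF, and Ctss, a lysosomal protease, 1975-fold lower. PH and MF were close for this list, with 3 of 17 genes at least 2-fold higher in PH, 3 lower and 11 within 2-fold. The part of macrophages in the values of Stab1, Lyve1 and Fcgr2b was not tested, and in pooled RNA fewer cells of a type and less RNA per cell cannot be told apart. B lymphocyte genes had 1 of 6 higher and 1 lower in iHep over MF, and 6 of 8 higher and none lower in PH over MF. Their summed signal was 1.48 in iHep, 3.82 in PH and 1.26 in MF. Platelet genes had 1 of 6 higher and 4 lower in iHep over MF, and 3 of 9 higher and none lower in PH over MF, with sums of 0.118 in iHep, 2.26 in PH and 1.96 in MF. Over all genes the shares were 21.1% higher and 24.7% lower in iHep over MF, and 31.4% and 25.8% in PH over MF.

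The adhesion molecule Pecam1 (CD31), found at endothelial junctions, showed smaller differences. It had a level of -2.57 in iHep, -0.15 in PH and -3.45 in MF. iHep lay between the others, 1.84-fold above MF, which is within 2-fold, and 5.33-fold below PH, and PH was 9.81-fold above MF. Under normexp the log2 difference in iHep over MF was 0.10, against 0.88 as reported, so iHep and MF were then nearly level. In PH over MF it was 2.28 under normexp, against 3.29 as reported.

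The VEGF receptors were likewise highest in PH. Flt1 (VEGF receptor 1), which binds VEGF-A and placental growth factor, was at -6.18 in iHep, 2.20 in PH and -2.85 in MF. iHep was 10.1-fold below MF and 334-fold below PH, and PH was 33.1-fold above MF. Flt4 (VEGF receptor 3), which binds VEGF-C and VEGF-D, read -9.47 in iHep, -0.80 in PH and -5.99 in MF. It was not well above background in iHep, and read an intensity of 8.56 in MF, so iHep was at least 2.52-fold below MF and at least 92.1-fold below PH. PH was 36.5-fold above MF, but under normexp that log2 difference was 2.41, against 5.19 as reported. With the common background floor the bound for Flt4 in iHep over MF was a log2 value of -0.31, within 2-fold, against -1.33 as reported.

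Kdr (VEGF receptor 2), the main signalling receptor for VEGF-A, was read by 2 probes of 1 transcript that disagreed. The probe used, which had the higher mean level, was printed once and read -1.38 in iHep, 0.65 in PH and -1.17 in MF. By that probe iHep and MF were within 2-fold, at 1.16-fold lower in iHep, and PH was 3.53-fold above MF and iHep 4.09-fold below PH. The other probe, printed 10 times, read -5.73 ± 0.08 in iHep (SD of 6 spots), 4.95 ± 0.06 in PH (8 spots) and -1.26 ± 0.06 in MF (10 spots). By it iHep was 22.2-fold below MF and 1641-fold below PH, and PH was 74.0-fold above MF. Both probes placed PH highest and iHep lowest, but the log2 differences they gave were -0.21 and -4.47 for iHep over MF, 1.82 and 6.21 for PH over MF, and -2.03 and -10.68 for iHep over PH. In iHep and PH, 4 and 2 of the 10 spots were marked as outliers by the scanner software and left out. With the 10-spot probe in place of the other, 8 of 10 genes instead of 7 were at least 2-fold lower in iHep than MF. Under normexp the probe was chosen anew. Kdr then read -3.71 in iHep over MF, 6.02 in PH over MF and -9.73 in iHep over PH, near the 10-spot probe. The authors' deposited table holds only the 10-spot probe and gave -4.11 for iHep over MF. Neither is thus taken as support separate from that probe.

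**Figure D2:**
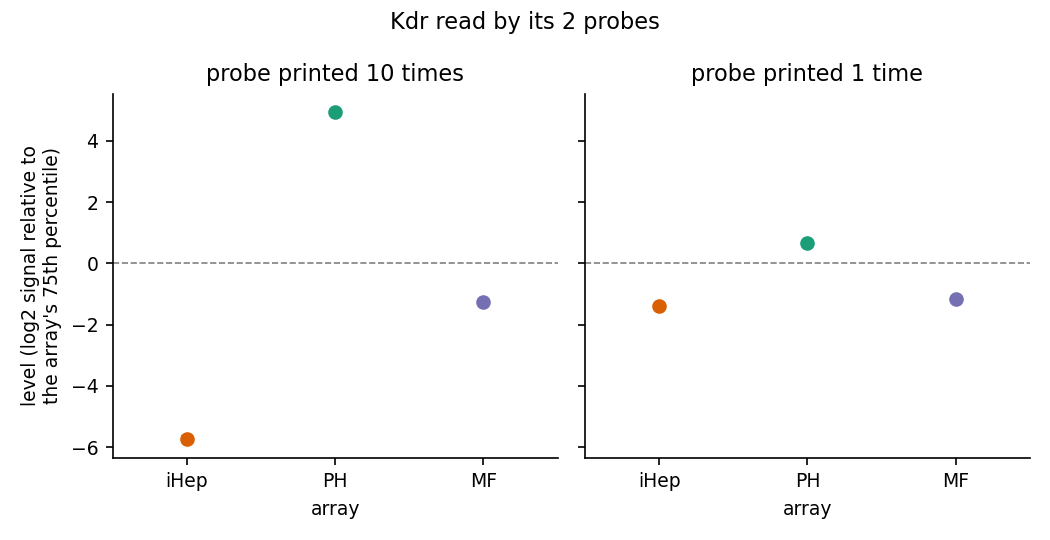
Level of Kdr (log2 signal relative to the array's 75th percentile) on the iHep, PH and MF arrays, by the probe printed 10 times (left; bars are the SD over the spots kept, smaller than the points) and by the probe printed once (right). Both place PH highest; iHep lies 4.47 log2 units below MF on the left and 0.21 below it on the right.

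Tek (TIE2), the angiopoietin receptor of endothelium, read -8.15 in iHep, -0.33 in PH and -4.76 in MF. It was not well above background in iHep, so iHep was at least 5.90-fold below MF and at least 127-fold below PH. PH was 21.6-fold above MF, but under normexp that log2 difference was 2.59, against 4.43 as reported.

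**Figure D3:**
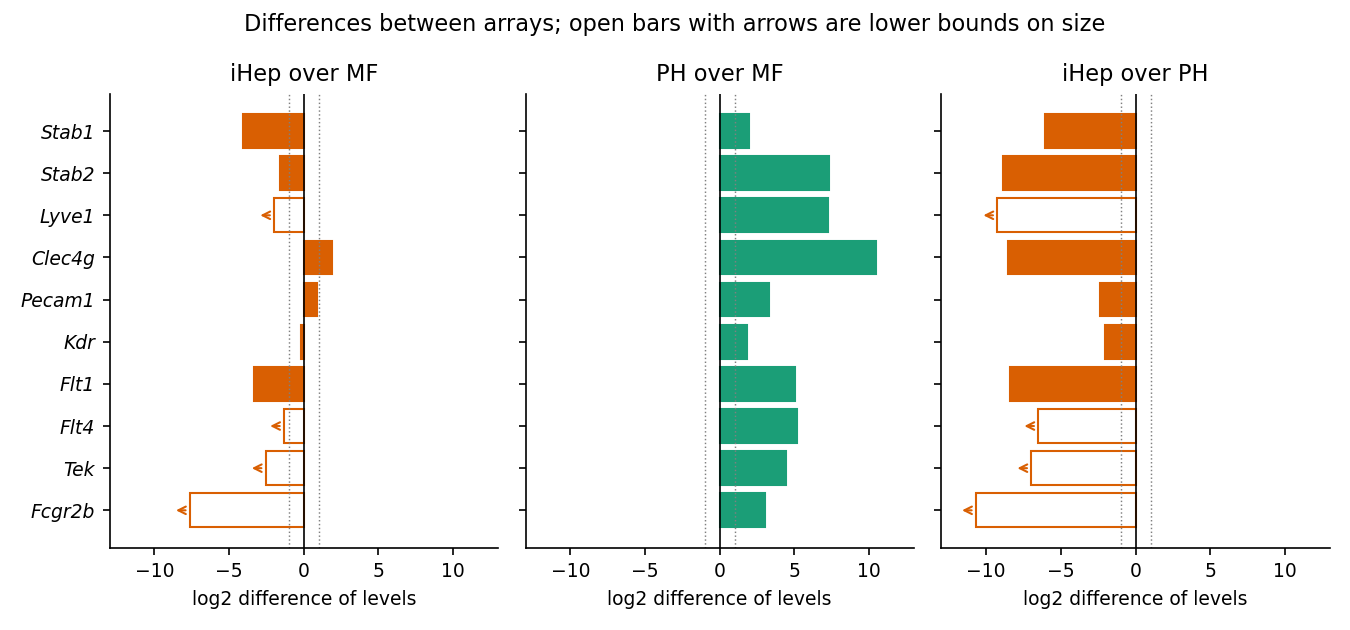
Log2 differences of levels for the 10 genes (probe used for each), with a panel for each of the 3 comparisons. Dotted lines mark 2-fold, and open bars with arrows are bounds, for genes at background in iHep. Differences run one way in PH over MF and in iHep over PH, but in iHep over MF Clec4g is 1.92 and Pecam1 0.88 above 0.

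Ligands of the VEGF receptors and of Tek were mostly lower in PH than MF, and were listed together with Hgf, which is not a ligand of either. Of 9 VEGF, angiopoietin and HGF genes, 5 were at least 2-fold higher and 3 lower in iHep than PH, with a median of 2.05, and in PH over MF 6 were lower and 1 higher, with a median of -2.32. Vegfa, the chief growth factor for endothelium, was at 1.80 in iHep, -0.48 in PH and 2.10 in MF, 4.84-fold higher in iHep than PH. Vegfd, a ligand of Flt4, was at 0.22 in iHep, -3.01 in PH and 3.85 in MF. It was 12.4-fold lower in iHep and 116-fold lower in PH than in MF. Relative to MF, iHep had 2 of 9 ligand genes higher and 5 lower, against 21.1% and 24.7% of all genes. Angpt1, the activating ligand of Tek, was 41.7-fold higher in iHep than MF and Pgf, which binds Flt1, 5.93-fold higher, whereas Angpt2, the context-dependent ligand of Tek, was 6.62-fold lower and Hgf, the hepatocyte growth factor, at least 78.4-fold lower.

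Several genes that define endothelium were read in PH alone. Cdh5 (VE-cadherin, the endothelial junction protein) read -8.75 in iHep, 3.19 in PH and -6.67 in MF, and was above background only in PH. Tie1, Emcn, Erg and Robo4 showed the same: well above background in PH, and not in iHep or MF. Of 12 defining genes, 7 were above background in iHep, 11 in PH and 5 in MF; the spot of Esam was left out as an outlier on PH. Their summed signal was 5.17 in iHep, 51.0 in PH, without Esam, and 3.38 in MF. Ecscr, at 2.23 in iHep, 2.32 in PH and 0.72 in MF, made up most of the sum in iHep. The greater sum in iHep than MF rests on that gene. The genes read in iHep were Esam, Egfl7, Vwf, Cldn5, Clec14a and Ecscr, and Sox17 by its second probe. In PH over MF 10 of 11 were at least 2-fold higher and none lower, with Robo4, a vascular guidance receptor, at least 845-fold and Cdh5 at least 722-fold higher. Between iHep and MF 6 could be compared. Ecscr, an endothelial surface protein, was 2.84-fold higher in iHep; Egfl7, a secreted endothelial protein, was 15.1-fold lower, Clec14a 3.57-fold lower and Vwf, the clotting factor carrier, 3.55-fold lower.

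**Figure D4:**
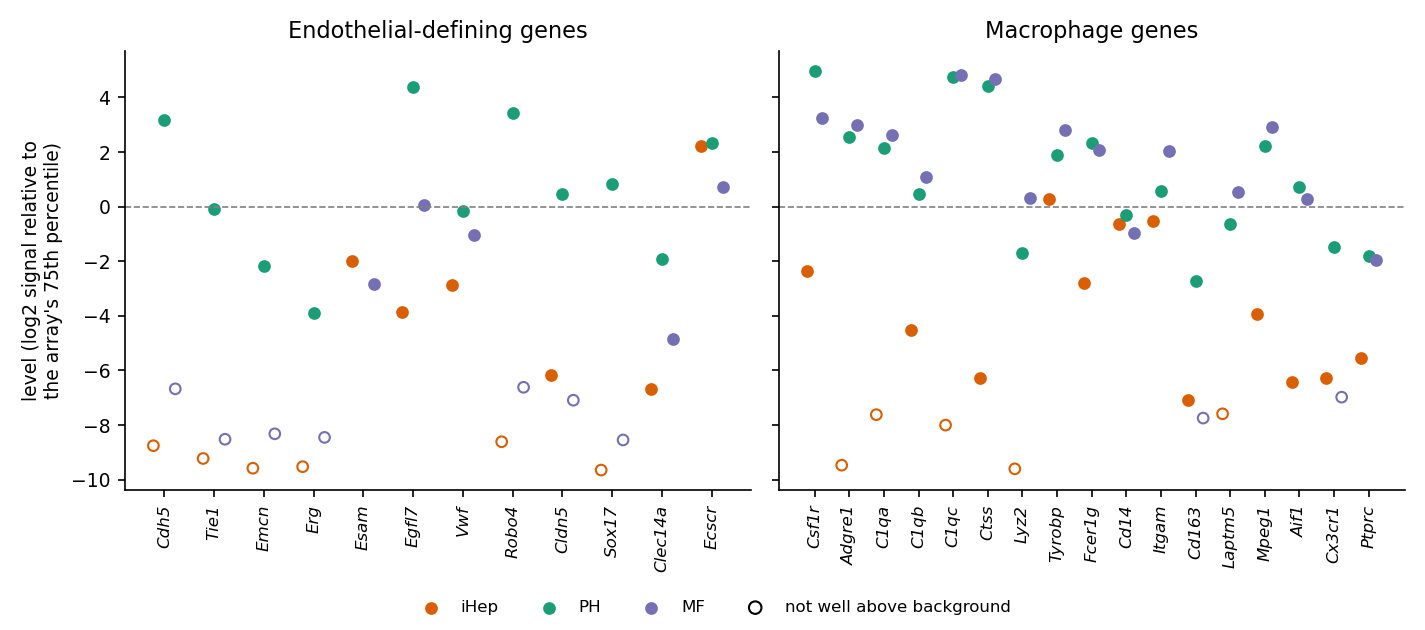
Levels (log2 signal relative to the array's 75th percentile) of 12 endothelial-defining genes (left) and 17 macrophage genes (right) on the iHep, PH and MF arrays; open points were not well above background, and Esam has no PH point. On the left, Cdh5, Tie1, Emcn, Erg and Robo4 are filled in PH alone, whereas on the right PH and MF lie close together for most genes and iHep lies below them.

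The wider pan-endothelial list of 38 genes had 30 of 37 at least 2-fold higher and 1 lower in PH than MF, with a median log2 difference of 3.25 that was 4.13 with readings at background taken as read; the median over all genes compared was 0.08. iHep was at least 2-fold below PH for 29 of 36 and above for 1, Nrp2, a coreceptor of VEGF-C, at 2.53-fold. Against MF, 14 of the 29 compared lay at least 2-fold lower in iHep and 7 higher (median -0.96). S1pr1, the sphingosine phosphate receptor of endothelium, was 43.2-fold lower, Ptprb, the phosphatase that restrains Tek, 41.2-fold lower, and Vcam1, a leukocyte adhesion molecule also of stroma, 20.5-fold lower. On the other side, Plvap, which forms the diaphragms of fenestrae, was 10.1-fold higher in iHep, Icam2 4.27-fold, Aplnr at least 4.11-fold and Nos3, endothelial nitric oxide synthase, 3.66-fold. Plvap stood at 3.64 in iHep, 3.97 in PH and 0.31 in MF.

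Sinusoidal endothelial genes outside the 10 were mostly higher in PH. In PH over MF 16 of 20 were at least 2-fold higher and none lower, with a median of 3.77. Dnase1l3, a secreted nuclease, was at least 464-fold higher, Gpr182, an endothelial chemokine scavenger, at least 372-fold, Bmp2, which signals iron status to hepatocytes, at least 144-fold and Oit3 118-fold. iHep was at least 2-fold below PH for 16 of 19. Ehd3, a membrane trafficking protein, was at least 5145-fold lower in iHep than PH. Relative to MF, iHep had 3 of 14 genes higher and 5 lower, against 21.1% and 24.7% of all genes. Gata4, a transcription factor of sinusoidal endothelium and of early liver, was 4.10-fold higher and Oit3 4.15-fold higher, while Ehd3 was at least 126-fold lower, Bmp6 36.8-fold lower and Maf, a transcription factor of sinusoidal endothelium and macrophages, 12.4-fold lower. The labels do not name the factors of the vectors, and whether a vector added to the Gata4 signal in iHep was not tested.

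As a description over 3 arrays, the genes whose 3 levels lay nearest to a member's were sought among 13924 others above background on all arrays. For Stab2 these were Epb41l4b, Gulo and Hsd11b1, at Euclidean distances between 1.09 and 1.21 log2 units. For Kdr by the probe used they were Gm13271, Psmb9 and Agpat2, at 0.19, 0.27 and 0.28. Lelp1, Cacna2d2 and Tcl1b2 lay nearest to Pecam1, at 0.11, 0.45 and 0.45. Each distance also carries the brightness of the probes themselves.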

How the data were processed

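Spot intensity values of 3 one-colour (Cy3) arrays were deposited as scanner output of Agilent Feature Extraction 11.0.1.1 per the file headers (version 9.1 per the submitters' processing notes); they had been corrected for background and for spatial trend on each array, and not yet put on a shared scale. Per the labels' protocols, RNA was prepared with a blood RNA kit with globin reduction. The authors' value table, deposited as log2 values of 26049 probes with medians of 7.01 (iHep), 7.07 (PH) and 7.02 (MF), has its scale and centring unstated; it correlated at 0.998, 0.994 and 0.997 with log2 scanner values of iHep, PH and MF and holds 7 of the 10 genes. Its normalization stays unknown.

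Levels are log2 processed intensity minus the array's 75th percentile over the 43020 non-control spots less those marked as outliers (230, 383 and 190 on iHep, PH and MF); no spot was saturated. Spots of a probe were averaged (39429 probes), and a probe was above background where a share of at least 0.5 of its spots had the scanner software's well-above-background mark; a gene was where any of its probes was. Probes were named by unversioned RefSeq accession (27228 with 1 symbol, 12201 with none). For the 5474 genes with several probes, the one with the highest mean level was used. This choice was made anew under each alternative. Where only 1 side was above background, the fold is "at least", the dim side being set at its own reading or at that array's lowest level above background, whichever was greater (-7.32, -6.89 and -6.30 on iHep, PH and MF). No fold is given where another probe of the gene was above background on the dim side. Genes were counted at 2-fold. The number of arrays limits the precision. The percentile had been planned over probes and was taken over spots, and that over probes is among the alternatives.

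The 10 genes and 14 lists of 169 genes (166 measured) were chosen with earlier results of these data known. Named genes are the 10, all endothelial-defining genes, genes among the up to 4 greatest differences each way per list and comparison, and 3 nearest genes for Stab2, Kdr and Pecam1. Alternatives were normexp (R 4.3.3 with limma 3.58.1; an offset of 50; median signals, as no mean signals were used here), other scalings, the authors' values, filters, probe means, a common floor and thresholds; 4 more were chosen after seeing the data. Calculations used Python 3.11.15 and numpy 2.4.6, and the steps were tested on simulated data.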

Additional observations from a re-analysis of the deposited data

How the results depend on the processing

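Directions for the 10 genes held in PH over MF and in iHep over PH under all 12 alternatives that give a difference. In iHep over MF 1 of 113 values over the 10 genes changed sign: Clec4g, at -0.26 under normexp against 1.92. These 113 include Kdr and Pecam1, which were within 2-fold as reported. In iHep over MF the median of the genes compared was -1.79 as reported and ranged from -3.36 to -0.90. The latter is over the 6 genes above background on all arrays, and with all 10 compared the weakest was -1.26, with the common floor. The median of the genes compared ranged from 3.74 to 5.12 in PH over MF and from -8.45 to -7.15 in iHep over PH. Genes higher in iHep over MF, 1 as reported, were 0 under normexp, in the authors' table (7 genes compared) and at 4-fold, and 2 at 1.5-fold. Those lower, 7 as reported, were 5 with a common background floor, where Lyve1 (-0.97) and Flt4 (-0.31) came within 2-fold, 8 under normexp, with probe means and with the 10-spot probe of Kdr, 4 at 4-fold and 3 when limited to genes above background on all arrays. That filter leaves 6 of the 10, all 6 higher in PH over MF and all 6 lower in iHep over PH. The gene added wherever 8 were lower was Kdr. Its log2 difference was -3.71 under normexp, -2.34 with probe means and -4.47 by the 10-spot probe, against -0.21 as reported. In the pan-endothelial list, iHep over MF had 3 higher under normexp and 3 at 4-fold (7 as reported), and 7 lower in the authors' table and 8 at 4-fold (14 as reported). PH over MF had 19 higher in the authors' table and 17 above background on all arrays (30 as reported), and 2 lower with probe means and at 1.5-fold (1 as reported). iHep over PH had 17 lower in the authors' table and 18 above background on all arrays (29 as reported), and 2 higher under quantile normalization, in the authors' table and at 1.5-fold, and 0 at 4-fold (1 as reported). The authors' table and the filter compare fewer genes. The change for Kdr goes with the probe read, and the cause of the other changes was not tested.

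Over all genes, the share higher among those past 2-fold in iHep over MF was 46.1%, but 27.9% under normexp. In PH over MF it was 54.9%, but 38.9% under normexp, 42.0% in the authors' table and 43.2% with quantile normalization. In iHep over PH it was 39.3%, but 55.0% under quantile normalization and 55.9% in the authors' table. The median of all genes moved by -0.45 (iHep over MF and PH over MF) and -0.11 (iHep over PH) under normexp, by -0.35 (PH over MF) and 0.55 (iHep over PH) under quantile normalization, and by -0.39 and 0.57 in the authors' table. No paired analysis was possible because each group has 1 array. Low signal on the MF array limits Lyve1, Clec4g, Flt4 and Tek there, and their PH over MF differences were smaller under normexp. The PH over MF difference of Pecam1 was smaller under normexp too, at 2.28 against 3.29.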

Other observations

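Kupffer cell and red pulp macrophage genes followed the macrophage list in iHep but not in PH. In iHep over MF 8 of 8 compared were at least 2-fold lower, and in iHep over PH 9 of 10. In PH over MF 6 of 10 were higher and 2 lower. Clec4f, a lectin of Kupffer cells and a relative of Clec4g, read -9.32 in iHep, 3.01 in PH and -8.39 in MF, so that PH exceeded MF at least 636-fold. Hmox1, the heme-degrading enzyme, was 7.87-fold lower in PH than MF. Among 15 C-type lectin genes of the CD209, CD23 and Clec4 groups, PH over MF had 8 of 13 higher and 2 lower, iHep over MF 5 of 9 lower and none at least 2-fold higher, and iHep over PH 11 of 13 lower. Clec4d and Clec4n, myeloid lectins, were 74.7-fold and 62.9-fold lower in iHep than MF.

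Lymphatic endothelial genes gave few readings. Prox1, the lymphatic regulator that hepatocytes also make, read -8.28 in iHep, -1.25 in PH and -8.47 in MF and was above background in PH alone. Pdpn, podoplanin, which splenic reticular fibroblasts carry too, was at -9.53 in iHep, 0.81 in PH and 4.70 in MF, at least 4174-fold lower in iHep than MF. Foxc2 went the other way, at 1.52 in iHep, -4.02 in PH and 0.49 in MF, and was 46.5-fold higher in iHep than PH. Of the 6 measured genes, 4 were higher and 2 lower in PH over MF, 1 higher and 5 lower in iHep over PH, and 1 of 3 higher and 2 lower in iHep over MF.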
